A study of Carassius auratus with 6 samples.

Results

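The melanin enzymes of the tyrosinase family were followed in skin of Carassius auratus, using the golden-back crucian carp, a natural colour mutant that carries golden and greenish grey skin. Members were the genes of the expression table whose product name begins with tyrosinase, 5,6-dihydroxyindole-2-carboxylic acid oxidase or L-dopachrome tautomerase. The rule reads the annotation and no expression values, but it was set with earlier results of these data known. This rule gave 7 of 83088 gene rows, with 3 tyrosinase genes, 3 genes of the carboxylic acid oxidase (called tyrp1 here, after tyrosinase-related protein 1) and 1 dopachrome tautomerase gene, dct. All 7 are annotated as protein-coding.

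The 6 libraries were made from mRNA of skin of female fish, 3 from golden and 3 from greenish grey skin, and each is named here by the replicate number of its title. No treatment or engineered allele is named. The labels do not give the age of the fish, or whether libraries that share a number came from the same animal, and the study describes its fish only for other libraries. Because separate animals are not stated, the p-values measure only the spread between these libraries.

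Melanin is made inside melanosomes, the pigment organelles of melanophores, which are the dark pigment cells of fish skin. Tyrosinase starts the pathway by oxidising tyrosine to dopaquinone, without which no melanin is formed. Dopachrome tautomerase then converts dopachrome to 5,6-dihydroxyindole-2-carboxylic acid, and tyrosinase-related protein 1 acts after it in mice, where it also stabilises tyrosinase. The 3 enzymes share a common origin and carry metal ions at their active site. In whole skin, fewer melanophores and less of a transcript in each melanophore cannot be told apart.

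Total counts were between 51493103 and 67595616 per library. Skeletal muscle markers took 3.10% to 12.5% of the counts in golden and 1.55% to 8.12% in greenish grey libraries, with overlap between the colours and the highest share in library 1 of each. Epidermis markers, which define the sampled tissue, were present in every library (0.440% to 2.78% in golden and 0.865% to 2.40% in greenish grey skin).

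All 7 members had lower mean values in golden than in greenish grey skin, where 48.2% of all genes tested had a fitted log2 fold change below 0, and the 3 tyrp1 genes stood furthest apart for their spread. Summed over the family, the level per length was 3.99, 3.30 and 4.61 FPKM in golden libraries 1, 2 and 3, against 39.3, 11.6 and 23.0 FPKM in greenish grey libraries 1, 2 and 3. FPKM corrects a gene's fragments for its length and for the depth of sequencing. The sums did not overlap, and greenish grey skin held 6.21 times the golden mean (3.97 ± 0.657 FPKM in golden and 24.6 ± 13.9 FPKM in greenish grey skin, SD, n = 3). Without greenish grey replicate 1 the log2 ratio of the summed scaled counts was -1.86, against -2.51 with all libraries. In reads, the family received 1602 counts over the golden libraries and 9738 over the greenish grey ones.

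**Figure D1:**
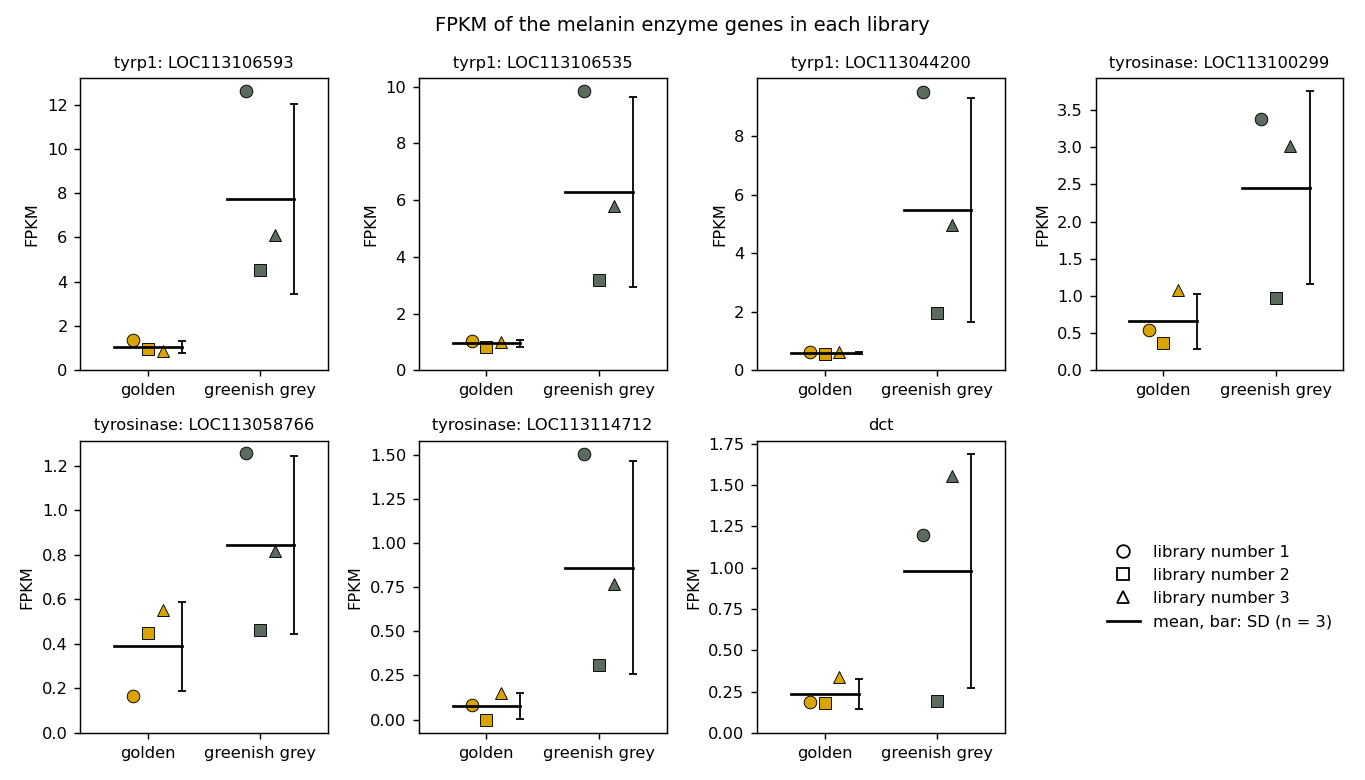
FPKM of each melanin enzyme gene (vertical axis, starting near 0) in golden (left) and greenish grey (right) skin. Points are libraries with the symbol giving the replicate number, lines are means and bars are SD (n = 3). The tyrp1 genes sit between 0.559 and 1.38 FPKM in golden and between 1.95 and 12.6 FPKM in greenish grey skin, and greenish grey library 2 is the lowest of its colour in every panel.

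Gene by gene, the 2 colours were compared in edgeR's quasi-likelihood test over 41241 genes with a mean of at least 10 counts. All 7 members were tested. Of these, 6 were past 2-fold lower in golden skin at an unadjusted p under 0.05, against 1.76% of all genes tested. Leaving out 1 library gave between 3 and 6 such members, with 3 (the tyrp1 genes) in the fits that lacked greenish grey replicate 1 or greenish grey replicate 3. After Benjamini-Hochberg adjustment 0 members had a p under 0.05 in edgeR (adjusted p = 0.9999 for each), as no gene of the table did, while 1777 genes had an unadjusted p under 0.05. In DESeq2, 3 members had an adjusted p under 0.05, against 0.464% of the genes given an adjusted p there that were called lower in golden skin. The members' median log2 fold change was -2.59, beside 0.022 over all genes tested. In 4 members the highest golden value was under the lowest greenish grey one on scaled counts, as in 5.51% of all genes tested, and 10.2% of genes had no overlap in either direction.

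The tyrp1 gene LOC113106593 (chromosome 1, 29331820 to 29340266 on assembly ASM336829v1) was the most abundant member. It had 1.38, 0.938 and 0.890 FPKM in golden libraries 1 to 3, against 12.6, 4.52 and 6.09 FPKM in greenish grey libraries 1 to 3. The colours did not overlap, and its lowest greenish grey value was that of library 2. The log2 fold change was -2.67 (SE 0.58, unadjusted p = 0.00267 and adjusted p = 0.9999 in edgeR, adjusted p = 0.00324 in DESeq2). With the replicate number as a block, which removes what same-numbered libraries share, it was -2.58 (SE 0.25, edgeR adjusted p = 0.196).

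The second tyrp1 gene, LOC113106535 (chromosome 7, 33348047 to 33354933), had 1.02, 0.812 and 0.999 FPKM in golden libraries 1 to 3, against 9.84, 3.20 and 5.80 FPKM in greenish grey libraries 1 to 3. Its golden values lay close together and below every greenish grey value. The log2 fold change was -2.59 (SE 0.53, unadjusted p = 0.00195 in edgeR, adjusted p = 0.00231 in DESeq2). Its gene model is marked as a low-quality protein in the table, as is that of the tyrosinase gene LOC113100299.

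The third tyrp1 gene, LOC113044200 (chromosome 26, 7357852 to 7365257), had 0.615, 0.559 and 0.606 FPKM in golden libraries 1 to 3, against 9.53, 1.95 and 4.96 FPKM in greenish grey libraries 1 to 3. The golden libraries differed little, while the greenish grey ones spread widely without reaching them. The log2 fold change was -3.08 (SE 0.67, unadjusted p = 0.00257 in edgeR, adjusted p = 0.00276 in DESeq2). Without greenish grey replicate 1 the log2 fold changes of the tyrp1 genes were -2.01 for LOC113106593, -1.99 for LOC113106535 and -2.28 for LOC113044200, and all 3 stayed past the threshold.

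The shares of the 3 tyrp1 genes in their sum overlapped between the colours. LOC113106593 held 40.7% ± 5.10 of the summed tyrp1 FPKM in golden and 40.8% ± 5.44 in greenish grey skin (SD, n = 3), LOC113106535 held 36.3% ± 3.31 and 32.8% ± 1.84, and LOC113044200 held 23.0% ± 2.22 and 26.5% ± 5.46 in golden and in greenish grey skin. How the authors counted reads that match several copies is not stated, so the division between copies is uncertain.

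The tyrosinase genes were less abundant and less uniform. LOC113100299 (unplaced scaffold, 24211 to 31115) had 0.543, 0.360 and 1.07 FPKM in golden libraries 1 to 3, against 3.38, 0.970 and 3.02 FPKM in greenish grey libraries 1 to 3. Golden library 3 lay above greenish grey library 2, so the colours overlapped. The log2 fold change was -1.80 (SE 0.62, unadjusted p = 0.0233 in edgeR, DESeq2 adjusted p = 0.344). Without greenish grey replicate 1 it was -1.39 with an unadjusted p of 0.0748, and the unadjusted p was also above 0.05 without golden replicate 2 (0.0652) and without greenish grey replicate 3 (0.0574).

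LOC113114712 (chromosome 15, 1984224 to 1989338) was the least abundant member in golden skin. It had 9, 0 and 20 counts in golden libraries 1 to 3, against 150, 38 and 98 counts in greenish grey libraries 1 to 3. The colours did not overlap, and a count of 0 in golden library 2 allows a level of up to 3 counts, or 0.0546 CPM, the count scaled to library size. The log2 fold change was -3.33 with a wide standard error of 1.30 (unadjusted p = 0.0390 in edgeR, DESeq2 adjusted p = 0.336). Without golden replicate 2 the log2 fold change was -2.74, and without greenish grey replicate 1 it was -2.54. The unadjusted p was 0.140 without greenish grey replicate 1, 0.0630 without greenish grey replicate 3, 0.0578 without golden replicate 1 and 0.0517 without golden replicate 3. Of the summed tyrosinase FPKM this gene held 6.26% ± 5.51 in golden and 19.6% ± 4.23 in greenish grey skin (SD, n = 3), without overlap. The golden shares rest on these few counts, and the treatment of reads that match several copies is not stated, so this division is uncertain too.

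LOC113058766 (chromosome 40, 18531713 to 18538422) was the only member that did not pass. It had 0.166, 0.448 and 0.553 FPKM in golden libraries 1 to 3, against 1.26, 0.461 and 0.815 FPKM in greenish grey libraries 1 to 3. Golden library 3 lay above greenish grey library 2, and the log2 fold change of -1.05 (SE 0.61, unadjusted p = 0.131 in edgeR) was not distinguishable from the spread between libraries. In golden skin it held 35.8% ± 17.7 of the summed tyrosinase FPKM, and in greenish grey skin 21.6% ± 4.51 (SD, n = 3), with overlapping values.

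The dct gene (chromosome 9, 5786619 to 5800634) had 0.187, 0.182 and 0.339 FPKM in golden libraries 1 to 3, against 1.20, 0.190 and 1.56 FPKM in greenish grey libraries 1 to 3. Greenish grey library 2 was as low as the golden libraries, with 30 counts beside 24, 25 and 56 counts in golden libraries 1 to 3. The log2 fold change was -1.92 (SE 0.78, unadjusted p = 0.0444 in edgeR). With the replicate block it was -1.54 and its unadjusted p was 0.0568, so dct was no longer past the threshold, and 5 members were called lower against 2.73% of all genes tested in that fit. Leaving out greenish grey replicate 2 gave -2.41 (unadjusted p = 0.00299), whereas the unadjusted p was between 0.0722 and 0.137 without any single one of the other 5 libraries.

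**Figure D2:**
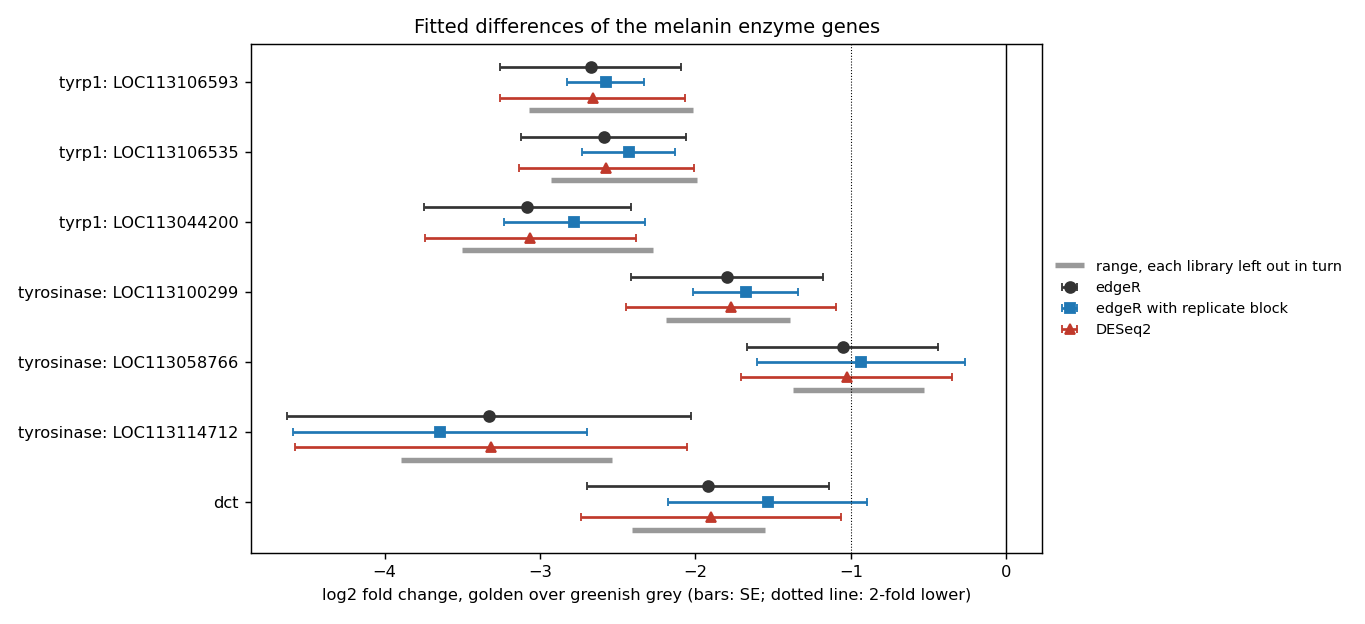
Log2 fold change of each melanin enzyme gene, golden over greenish grey skin (horizontal axis), from edgeR, edgeR with the replicate block and DESeq2, with SE as bars. Grey lines span the edgeR values with each library left out in turn, and all points and ranges lie below 0. The tyrp1 genes lie between -3.08 and -2.43 in the 3 fits, and LOC113058766 lies nearest to 0.

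Same-numbered libraries deviated together from their colour means in numbers 1 and 3 (r = 0.664 and 0.684) and only weakly in number 2 (r = 0.247). Each member was therefore also compared within numbers. In libraries numbered 1 and 3 all 7 members were lower in golden skin, and in libraries numbered 2 there were 5. Lower values in all 3 numbers were found for 5 members, against 19.1% of all genes tested. For LOC113106593 the scaled count was 7.33, 4.22 and 6.83 times lower in golden skin in numbers 1, 2 and 3. For LOC113044200 it was 12.5, 3.07 and 8.20 times lower. The 2 exceptions in number 2 were small, with a log2 ratio of 0.16 for LOC113058766 and 0.086 for dct. They hold on scaled counts only, and so do the counts of 5 members given here. In FPKM golden library 2 was slightly below greenish grey library 2, with 0.448 against 0.461 for LOC113058766 and 0.182 against 0.190 for dct. LOC113114712 was 13.6 times lower in number 1, at least 9.94-fold lower in number 2, where the golden library is taken at the limit of 3 counts, and 5.06 times lower in number 3. The median over the members was -2.87, -1.62 and -2.34 on the log2 scale in numbers 1, 2 and 3, so the difference was smallest where the greenish grey library was lowest.

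**Figure D3:**
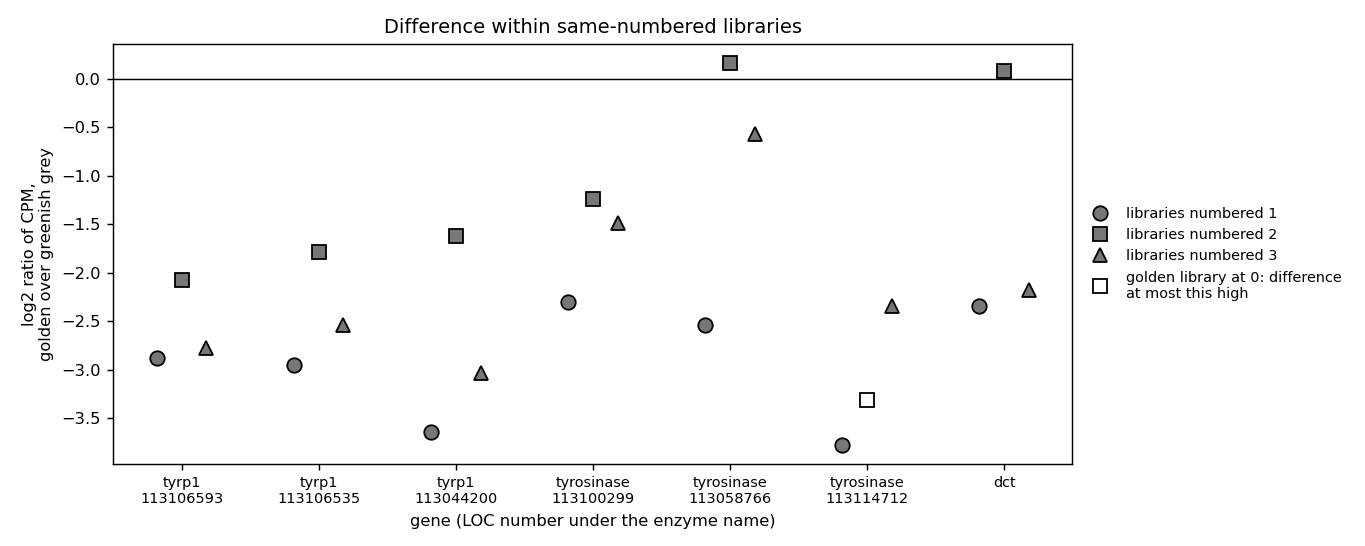
Log2 ratio of scaled counts (CPM), golden over greenish grey skin, within libraries of the same number, for each melanin enzyme gene. Symbols give the number, and the open symbol is an upper limit because the golden library had 0 counts. All ratios lie below 0 except those of LOC113058766 and dct in number 2.

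The greenish grey libraries varied among themselves in a shared order. Library 2 was the lowest of them for all 7 members, and library 1 the highest for 6, with dct highest in library 3. Among golden libraries the order was less uniform. Library 3 was the highest for 4 members and library 1 for 3. Golden library 2 was the highest for 0 members and the lowest for 4, with library 3 the lowest for 2 and library 1 for 1. Dermal fibroblast markers also differed between the greenish grey libraries, with 10800, 3000 and 1720 CPM in libraries 1, 2 and 3, as did muscle markers with 86100, 14100 and 27000 CPM. Their part in the enzyme values was not tested.

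By level per length, the order of the members in greenish grey skin ran from LOC113106593 (7.74 ± 4.29 FPKM) over LOC113106535 (6.28 ± 3.35), LOC113044200 (5.48 ± 3.81), LOC113100299 (2.45 ± 1.30), dct (0.981 ± 0.708) and LOC113114712 (0.860 ± 0.603) to LOC113058766 (0.844 ± 0.398; SD, n = 3). No 2 neighbours in this order differed by more than the larger of their SDs except LOC113100299 and dct. In golden skin the order ran from LOC113106593 (1.07 ± 0.272 FPKM) over LOC113106535 (0.943 ± 0.114), LOC113100299 (0.659 ± 0.371), LOC113044200 (0.593 ± 0.0302), LOC113058766 (0.389 ± 0.20) and dct (0.236 ± 0.0893) to LOC113114712 (0.0772 ± 0.0749). Here the neighbours LOC113044200 and LOC113058766, and dct and LOC113114712, differed by more than the larger of their SDs. Within libraries, every tyrp1 gene was above every tyrosinase gene in 5 of 6, the exception being golden library 3. Mean FPKM over all libraries placed LOC113106593 above 69.3% of the genes tested and LOC113114712 above 22.7% of them. The family was thus a set of transcripts of middle to low abundance in this skin.

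The makeup of the family leaned towards tyrosinase in golden skin, but within the spread. Tyrp1 genes made up 75.5%, 70.0% and 54.1% of the summed FPKM in golden libraries 1 to 3, against 81.3%, 83.4% and 73.2% in greenish grey libraries 1 to 3. Golden library 1 lay above greenish grey library 3, so these shares overlapped. The summed FPKM of tyrp1 was 2.69 ± 1.22 times that of tyrosinase in golden and 4.81 ± 1.01 times in greenish grey skin (SD, n = 3). Dct made up 5.85% ± 1.36 of the family in golden and 3.82% ± 2.65 in greenish grey skin (SD, n = 3), also with overlap. Whether the enzymes differ in their response was not tested.

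To place the enzymes beside other melanophore transcripts, their sum was divided by that of genes for PMEL, the protein of the fibrils on which melanin is laid down, and for melan-A (mlana), a melanosome membrane protein. Of 4 pmel genes 2 were tested, and both were past 2-fold lower in golden skin at an unadjusted p under 0.05, as were 3 of 4 mlana genes, of which 2 are annotated as lncRNA. The pmel gene LOC113069261 had 0.688, 0.778 and 1.15 FPKM in golden libraries 1 to 3, against 13.6, 3.07 and 9.50 FPKM in greenish grey libraries 1 to 3, and greenish grey library 2 was again the lowest. Another pmel gene, LOC113041558, had 0 counts in all libraries. In counts, the ratio of the enzymes to pmel and mlana together was 1.23, 0.688 and 0.772 in golden libraries 1 to 3, against 0.827, 0.606 and 0.689 in greenish grey libraries 1 to 3. These overlapped, and without golden replicate 1 the golden mean exceeded the greenish grey mean by 0.045 on the log2 scale, against 0.34 with it.

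The ratio to each protein alone behaved differently. Relative to mlana the enzymes had 1.40 ± 0.513 counts per count in golden and 1.41 ± 0.507 in greenish grey skin (SD, n = 3). Relative to pmel alone they had 3.36, 2.62 and 1.85 in golden libraries 1 to 3, against 1.45, 1.85 and 1.34 in greenish grey libraries 1 to 3. The lowest golden ratio was barely above the highest greenish grey one. By enzyme, tyrp1 relative to pmel overlapped between the colours (1.87 ± 0.783 in golden and 1.27 ± 0.291 in greenish grey skin, SD, n = 3), as did tyrosinase relative to mlana (0.328 ± 0.128 in golden and 0.204 ± 0.0802 in greenish grey skin, SD, n = 3). Tyrosinase relative to pmel did not overlap, with 0.568, 0.558 and 0.637 in golden libraries 1 to 3, against 0.194, 0.229 and 0.233 in greenish grey libraries 1 to 3. The summed tyrosinase counts were thus lower in golden skin by a smaller factor than the summed pmel counts in these libraries. Dct relative to pmel did not overlap either, with 0.164, 0.153 and 0.152 in golden libraries 1 to 3, against 0.047, 0.0318 and 0.0973 in greenish grey libraries 1 to 3. Relative to mlana, dct and tyrp1 each overlapped between the colours. As these ratios were chosen with the values known, they are given without a test.

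The wider lists of melanosome and melanophore genes had most fitted log2 fold changes below 0 (33 of 36 and 22 of 28, beside 48.2% of all genes tested), but most of their genes did not pass the test. This lean was not particular to them. It was also seen in the lists, given below, for tyrosine handling (18 of 24), yellow pigment cells (21 of 25) and reflecting cells (16 of 20). Outside the pigment lists, dermal fibroblast (20 of 25) and endothelium markers (13 of 13) had it too. Muscle (13 of 99), epidermis (27 of 67) and erythrocyte markers (6 of 17) did not share it. Of 36 tested genes for melanosome matrix, membrane and transport proteins, 12 were past 2-fold lower and 0 higher at an unadjusted p under 0.05 (0 after edgeR adjustment), with a median log2 fold change of -1.32, and with the replicate block 11 were lower. By this rule 1.76% of all genes tested were lower, and 2.73% with the block. This list holds the pmel and mlana genes described above, and without them 7 of 30 were lower, with a median of -0.70. The 7 include gpr143, a receptor of the melanosome membrane (log2 fold change -2.57, SE 0.71), 1 of 4 transient receptor potential M1 genes, LOC113067010 (-2.19, SE 0.68), and 2 of 3 melanophilin-like genes, LOC113096918 (-1.59, SE 0.39) and LOC113108625 (-4.0, SE 1.21). Melanophilin links melanosomes to their motor in mammals. The other 3 of the 7 are Rab-38-like genes, of 6 tested. Of 28 tested genes for melanophore regulators, 9 were lower and 1 was higher, with a median of -0.95, and with the replicate block 12 were lower and 1 was higher. Of 4 genes for MITF, the transcription factor that activates tyrosinase family genes in mammals, 1 was lower, LOC113096094, with 0.151 ± 0.0799 FPKM in golden and 0.706 ± 0.233 FPKM in greenish grey skin (SD, n = 3; log2 fold change -2.10, SE 0.52). The most abundant of them, LOC113040922, had 2.60 ± 2.35 FPKM in golden and 2.62 ± 2.62 FPKM in greenish grey skin (SD, n = 3). The other 2 did not pass in the main fit, but they were past the threshold in edgeR with the replicate block. There LOC113051103 had -1.32 (unadjusted p = 0.047) and LOC113094047 -1.165 (unadjusted p = 0.012), while LOC113040922 had 0.27. The melanocyte-stimulating hormone receptor gene LOC113091614 had a log2 fold change of -2.03 (SE 0.64), and all 3 kita genes tested lay between -1.68 and -1.24. The gene that was higher is an agouti-signaling protein-like gene, LOC113050259 (log2 fold change 7.42, SE 1.28), whose product blocks that receptor in mammals. It had 2.78 ± 1.35 FPKM in golden and 0.0160 ± 0.0277 FPKM in greenish grey skin (SD, n = 3), the latter near the floor. The 2 other agouti-signaling genes were lower, LOC113046021 (-3.64, SE 1.2) without overlap and LOC113038505 (-2.16, SE 0.90) with overlap between the colours.

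Enzymes that handle tyrosine and dopa outside melanosomes were given as a further list. Of 24 tested genes, 1 was past 2-fold lower at an unadjusted p under 0.05, against 1.76% of all genes tested. It was a fumarylacetoacetase-like gene, LOC113051926 (log2 fold change -1.73, SE 0.50), whose product ends tyrosine breakdown. The other fumarylacetoacetase genes tested, LOC113052006 (-1.22, SE 0.57) and fah (-0.95, SE 0.46), did not pass. With the replicate block 3 of the list were lower, against 2.73% of all genes tested. The list median was -0.74, and 18 of 24 had a log2 fold change below 0.

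Each member was then set beside its neighbours in the genome, taking up to 4 genes on each side. The neighbourhoods matched in part between copies of the tyrp1 and tyrosinase genes. The tyrp1 genes on chromosomes 1 and 26 are each followed by an RNA-binding protein 47-like gene, a cytosol aminopeptidase-like gene and a CLOCK-like gene, whereas the tyrp1 gene on chromosome 7 is followed at 0.664 kb by a leucine rich adaptor protein 1-like gene. The tyrosinase genes on chromosomes 15 and 40 both lie near genes for metabotropic glutamate receptor 5, dipeptidyl peptidase 1 and Rab-38. The unplaced tyrosinase gene lies next to an NADPH oxidase 4 locus, as does that on chromosome 40. These shared neighbours are a description of gene order and not of sequence.

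Of 28 neighbours tested, 2 differed by over 2-fold with an unadjusted p under 0.05, against 3.21% of all genes tested in either direction, and the median log2 fold change of the neighbours was 0.15. Both were Rab-38-like genes, lower in golden skin. Of 6 Rab-38-like genes tested over the whole genome, 3 were past 2-fold lower and all 6 were below 0, with a median of -1.97. These 3 include LOC113038451 on chromosome 21 (-1.66, SE 0.67, unadjusted p = 0.0444 in edgeR), where no placed member lies. With the replicate block it had -1.56 (edgeR unadjusted p = 0.0523) and was no longer past the threshold, while the 2 neighbours stayed past it. Rab-38 is a small GTPase that brings tyrosinase family enzymes to melanosomes in mammals. LOC113058778 lies 91.2 kb from the tyrosinase gene on chromosome 40 and had -2.28 on the log2 scale (SE 0.57, adjusted p = 0.9999 in edgeR). LOC113114715 lies 79.7 kb from the tyrosinase gene on chromosome 15 and had -1.56 (SE 0.51, adjusted p = 0.9999 in edgeR). Directly beside the tyrp1 copies, 3 genes could be tested, and none passed. The RNA-binding protein 47-like genes had log2 fold changes of 0.16 (SE 0.74) and 0.39 (SE 0.79), and the leucine rich adaptor gene 0.026 (SE 0.60).

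**Figure D4:**
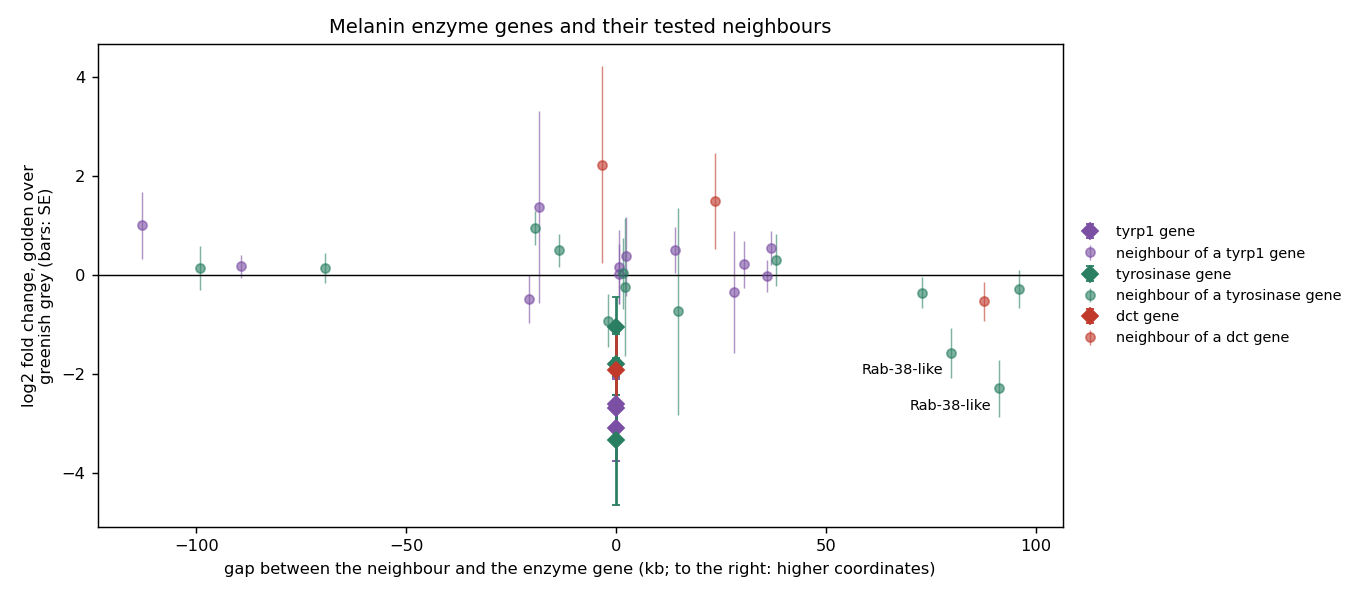
Log2 fold change, golden over greenish grey skin, of the melanin enzyme genes (diamonds at 0 kb) and of the 28 tested neighbouring genes (circles), against the gap between them in kb, with SE as bars. Colours mark the enzyme. The 2 labelled Rab-38-like genes, at -1.56 and -2.28, are the neighbours past the threshold.

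The genes whose pattern over the 6 libraries was most like that of the summed family were found by Pearson's r of log2 CPM, used as a measure of likeness only. The 5 closest of all genes tested were an olfactomedin-like protein 3B gene (LOC113045605, r = 0.997), an unnamed protein gene (LOC113120283, 0.995), an integrin beta-like protein 1 gene (LOC113053156, 0.993), an integrin beta-1-binding protein 1-like gene (LOC113060581, 0.992) and an inhibin beta B chain-like gene (LOC113110718, 0.992). LOC113045605 had 0.162, 0.148 and 0.219 FPKM in golden libraries 1 to 3, against 1.53, 0.515 and 0.972 FPKM in greenish grey libraries 1 to 3. It thus shared the low value of greenish grey library 2. In golden libraries 1 to 3, LOC113120283 had 0.0548, 0 and 0 FPKM, and LOC113110718 had 0.0648, 0 and 0.0856 FPKM. These values lie near the floor, which limits what r says about their likeness within golden skin. The 6 points share their colour and, by number, their deviations from the colour means.

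In the annotation of the table, all 7 members belong to the pathways Tyrosine metabolism and Melanogenesis, which hold 107 and 432 gene rows. Metal ion binding is given for 6 members and melanosome organization for 5, namely the tyrosinase genes and 2 of the tyrp1 genes.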

How the data were processed

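Skin mRNA of 3 golden and 3 greenish grey libraries was measured. The authors deposited 1 table with raw counts and FPKM per gene and library. All 83088 rows share their start with a RefSeq gene of assembly ASM336829v1. The submitters' notes list GRCm38 and mm10, which are mouse builds. The aligner, the counter, its use of strand and its treatment of reads shared by gene copies are not given in the sources used here. The deposited FPKM is 0.0001 where the count is 0 and was read as 0. Columns of the authors' own comparisons were not used.

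Counts were tested with edgeR 4.0.16 (R 4.3.3, quasi-likelihood, TMM scaling, mean of at least 10 counts, no replicate block), with p-values adjusted by Benjamini-Hochberg over all 41241 genes. A call was a 2-fold change at an unadjusted p under 0.05. The SE given for edgeR is the absolute log2 fold change divided by the square root of the F statistic. It is an approximation and is least certain for genes with a count of 0. Alternatives used a replicate block, DESeq2 1.42.0, limma 3.58.1 on log2(FPKM + 1) and log2(FPKM + 0.1), other filters, DESeq2 size factors and each library left out. Scripts were tested on simulated data. Library totals, from 51493103 to 67595616 counts, set the counting precision, and the limit for a count of 0 was 3 counts, for counting error only.

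Deviations from the colour means correlated between same-numbered libraries (r = 0.664, 0.247 and 0.684 for numbers 1, 2 and 3, at most 0.0436 for other pairings). Deviations from the mean of 3 libraries sum to 0, so positive values for same numbers push the other pairings down. The low values of those pairings are thus no separate support. Because of the same-numbered values, the numbers were taken as pairs in the comparison within numbers, while the main fit used no block. The fit with the block is given beside the main one where it changed a call of a member or a count of a list. The pairing rests on the data and the shared numbers, as the labels do not say what a number marks.

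All members were named. Examples were taken from the pmel and mlana genes and from list genes past the call rule, with other copies of the same gene counted or named beside them where several were tested. The 5 genes named as most alike had the highest Pearson's r of log2(CPM + 0.5) with the summed family. Members, lists and ratios were chosen with earlier results of these data known. No sequence is shown.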

Additional observations from a re-analysis of the deposited data

How the results depend on the processing

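Over 13 alternatives the members' log2 fold changes lay between -3.89 and -0.397 and none turned direction. In 17 of the 88 values a member called in the main fit was no longer past the threshold. The 3 tyrp1 genes stayed past it throughout. LOC113058766 was not called in the main fit and passed in no alternative, and its values are not among the 17. Limma on log2(FPKM + 1), a scale that understates changes of low genes, called 3 members and 562 genes, against 6 and 1324 in edgeR, and the filter of a mean of at least 1 FPKM, which left 4 members to test, called 731 genes. With the replicate block 2170 genes were called, and apart from dct it changed no call of a member. Leaving out 1 library gave 3 to 6 members and 887 (without greenish grey replicate 2) to 2279 genes (without golden replicate 3). At an adjusted p under 0.05, DESeq2 called 3 members and 330 genes and limma on log2(FPKM + 0.1) called 2 genes, against 0 in edgeR. The cause of these differences was not tested. Of the calls 54.8% were lower in golden skin in edgeR, 73.8% in limma on log2(FPKM + 0.1), where the median of all genes was -0.155, and 68.3% on log2(FPKM + 1). With 1 library left out this share lay between 34.2% (without greenish grey replicate 1) and 74.6% (without golden replicate 1), and it was 44.1% without golden replicate 3, so the balance of calls over all genes depends on single libraries.

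The log2 ratio of the enzymes to pmel and mlana, 0.34 from counts, was 0.11 from FPKM and lay between 0.045 and 0.50 with 1 library left out. The log2 ratio of the summed tyrp1 genes was -2.72 (-3.06 to -2.02 with 1 library left out), that of tyrosinase -1.80 (-2.18 to -1.27) and that of dct -1.92 (-2.41 to -1.56). Depth limits chiefly LOC113114712 and dct in golden skin, where no library had more than 56 counts.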

Other observations

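As a background for the lists below, 3.21% of all genes tested were past 2-fold in either direction at an unadjusted p under 0.05. With the replicate block 2170 of 41241 were. Of 25 tested markers of xanthophores, the yellow pigment cells, 1 was past 2-fold higher and 1 past 2-fold lower in golden skin by this rule. With the replicate block 1 was higher and 2 were lower. The median log2 fold change of these markers was -0.68, and 21 were below 0. Their summed level was at most 113 CPM in golden libraries, and it was above that in all greenish grey libraries, with 152 CPM in the highest. Of 20 tested markers of iridophores, the reflecting cells, 0 were higher and 1 was lower, with a median of -0.66 and 16 below 0. With the replicate block 1 was higher and 3 were lower. Their sums overlapped. Whether these lists differ from the melanin enzymes was not tested.

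Among markers of other cells, skeletal muscle had 9 of 99 tested genes higher and 1 lower in golden skin, with a median of 1.15, and with the replicate block 32 were higher and 2 lower. Of 25 dermal fibroblast genes 1 was higher and 1 lower (1 and 5 with the block), while 20 had a log2 fold change below 0 and the median was -0.82, further from 0 than in both pigment cell lists above. Of 13 endothelium genes 1 was lower, all 13 were below 0 and the median was -0.45. Of 67 epidermis genes 3 were higher and 2 lower (8 and 4 with the block, median 0.20), and of 17 erythrocyte genes 0 passed in either direction (median 0.27). Their part in the enzyme values was not tested.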
